A study of Mus musculus with 35 samples.

Results

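The complement components and receptors described here are 9 genes taken by symbol from a table of gene counts in mouse skin: C1qa, C1qb, C1qc, C3, C4b, Cfb, Cfd, C3ar1 and C5ar1. All 9 symbols were found among the 36106 genes of the table, and each passed the filter on low counts in every comparison below. The table holds 35 skin libraries from female C57BL/6J mice that were 10 weeks old at the start. 16 libraries, 4 for each of weeks 1, 2, 3 and 4, came from left flank skin that had received 25 Gy, given at 3.6 Gy per minute over 420 seconds and shaved afterwards. A further 16 libraries, 4 per week, are labelled control, and 3 are labelled sham and received no radiation. The place on the body that control skin came from and the week at which sham skin was sampled are not given in the labels. The series text counts 19 mice, which equals 3 sham mice plus 16 mice if same-numbered radiated and control libraries share a mouse, so that control skin would be unirradiated skin of a mouse irradiated elsewhere. On that reading no mouse was followed over time, and libraries of different weeks come from different animals, which the labels do not state.

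Complement is a cascade of plasma and tissue proteins that marks surfaces, calls in leukocytes and can open pores in membranes. The classical pathway starts with C1q, a recognition molecule built from the products of C1qa, C1qb and C1qc, and proceeds through C4 and C2 to a protease that cleaves C3. The alternative pathway builds a second C3-cleaving protease from C3b and factor B (Cfb) after cleavage by factor D (Cfd), and the small fragments C3a and C5a act on their receptors C3aR (C3ar1) and C5aR1 (C5ar1). In skin, tissue macrophages are a known source of C1q, fibroblasts and keratinocytes make C3 and factor B, and factor D, also called adipsin, is typical of adipocytes.

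Total counts ran from 17362725 to 28487795 per library, and every member was well above the limit of 3 counts: the lowest count of any member in any library was 81 (C5ar1) and the highest 35911 (C3). Levels are given in CPM, a gene's count relative to the library total after scaling by the trimmed mean of M-values, and differences as log2 fold changes from edgeR's quasi-likelihood test with Benjamini-Hochberg adjustment over all genes tested, a gene being called at an adjusted p under 0.05. The p-values cover the spread between the 4 libraries of a group (3 for sham) and counting error. The 8 keratinocyte markers of a fixed list summed to between 5538 and 27408 CPM, so that all libraries carried the defining transcripts of skin, but 8 skeletal muscle markers also summed to between 1593 and 53075 CPM. In bulk skin, a change in the number of cells of a type and a change in RNA per cell cannot be told apart.

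The 3 C1q genes lie side by side on the minus strand of chromosome 4 (GRCm38), within 18.7 kb, at chr4:136895917-136898803 for C1qa, chr4:136889804-136893065 for C1qc and chr4:136880129-136886187 for C1qb. C4b (chr17:34728380-34743882) and Cfb (chr17:34856374-34862518) are 112 kb apart on chromosome 17, and C3 lies elsewhere on that chromosome (chr17:57203970-57228136). The other members are at chr10:79890853-79892655 for Cfd, chr6:122847138-122856161 for C3ar1 and chr7:16246743-16259540 for C5ar1. C4b has a near-identical neighbour, C4a, which is not analysed here, so its counts are uncertain as to which copy they came from.

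RefSeq start-site windows (GRCm38.p6) were found for 6 of the 9 members. The 250 bases before the start were searched on both strands for 14 patterns, several of which overlap, and the windows below were chosen after the matches were seen, since 3 members that were high together in radiated skin shared a pattern. Capitals mark the 7-base ETS core AGGAAGT (here read as its complement) in C1qb, C1qc and C5ar1, the AP-1 pattern TGANTCA in C3ar1 and the C/EBP pattern TTGCNNAA in C3. For the other 4 genes, bases that fall inside the annotated gene span are left out. The C5ar1 window lies mostly inside that gene's annotated span, as do both of its matches, and only the 27 bases around each match are shown.
C1qb (chr4:136886201-136886450, minus strand): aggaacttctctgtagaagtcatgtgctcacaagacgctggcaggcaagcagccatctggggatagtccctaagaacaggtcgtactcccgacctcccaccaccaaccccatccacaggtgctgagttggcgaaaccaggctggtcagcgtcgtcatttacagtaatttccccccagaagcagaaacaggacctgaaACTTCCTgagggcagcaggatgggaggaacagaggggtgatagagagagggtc
C1qc (chr4:136893066-136893164, minus strand): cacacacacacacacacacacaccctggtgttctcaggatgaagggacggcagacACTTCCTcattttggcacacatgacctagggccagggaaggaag
C3 (chr17:57228137-57228386, minus strand): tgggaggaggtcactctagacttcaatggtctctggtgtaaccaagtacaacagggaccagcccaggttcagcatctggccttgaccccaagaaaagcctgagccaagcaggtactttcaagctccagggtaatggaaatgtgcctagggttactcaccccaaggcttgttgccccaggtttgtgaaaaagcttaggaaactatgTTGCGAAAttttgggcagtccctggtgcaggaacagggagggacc
C3ar1 (chr6:122856162-122856407, minus strand): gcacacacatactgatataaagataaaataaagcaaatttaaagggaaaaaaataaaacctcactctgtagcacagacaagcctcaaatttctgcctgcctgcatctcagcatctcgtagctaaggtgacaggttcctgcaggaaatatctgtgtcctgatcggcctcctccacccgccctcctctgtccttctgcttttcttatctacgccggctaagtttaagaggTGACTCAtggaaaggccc
C5ar1 (chr7:16259512-16259538, minus strand): aaactccaaaACTTCCTtcagaagagg
C5ar1 (chr7:16259394-16259420, minus strand): ggggccagagACTTCCTtccttttcca
The ETS core occurred in 3 of the 6 members and in 7.7% of 32851 RefSeq windows, 53 bases before the start in C1qb, 195 in C1qc, and 190 and 72 in C5ar1. The AP-1 pattern occurred in C3ar1, 22 bases before the start, and in 6.7% of windows. The C/EBP pattern occurred in C3, 45 bases before the start, and in 9.6% of windows, and its narrower form TTGCGNAA in C3 and in 0.67%. Of the other patterns, GAGGAAGT was found in C1qc (2.4% of windows), GAGGAA in C1qb and C1qc (23%), 1 of 3 NF-kB patterns in C3ar1 (1.4%) and TATAAA in C3ar1 (12%). No member window held the interferon-stimulated response element (3% of windows), the other NF-kB patterns (0.36% and 1.5%), the E-box CACGTG (6%), the GAS pattern TTCNNNGAA (7%) or the PPAR response element (0.033%). These are letter matches and describe the sequence only.

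Week 4 was the time at which every member differed between radiated and control skin. 8 of the 9 rose, from 2.07-fold for C3 to 11.1-fold for C5ar1, against 24.2% of the 17850 genes tested that were called higher. Cfd fell, against 24.2% called lower. In the 8 members that rose, the lowest radiated library lay above the highest control library, which held for 22.9% of genes, and for Cfd the highest radiated library lay below the lowest control library, which held for 23.2%. The median log2 fold change of the 9 members was 2.91, against 0.017 over all genes tested. At week 3, 3 members were called higher (Cfb, C3ar1 and C5ar1), against 13.6% of genes, and these were also the 3 whose groups did not overlap, against 14.4% of genes. None was called at week 2, when 0.00577% of genes passed, or at week 1, when 0% passed with 2477 of 17578 genes at an unadjusted p under 0.05 and 419 called by DESeq2. At week 2, 4 members (C1qb, Cfb, C3ar1 and C5ar1) did not overlap, against 3.97% of genes, while at week 1 no member was free of overlap in either direction, against 3.49% of genes higher and 4.89% lower.

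**Figure D1:**
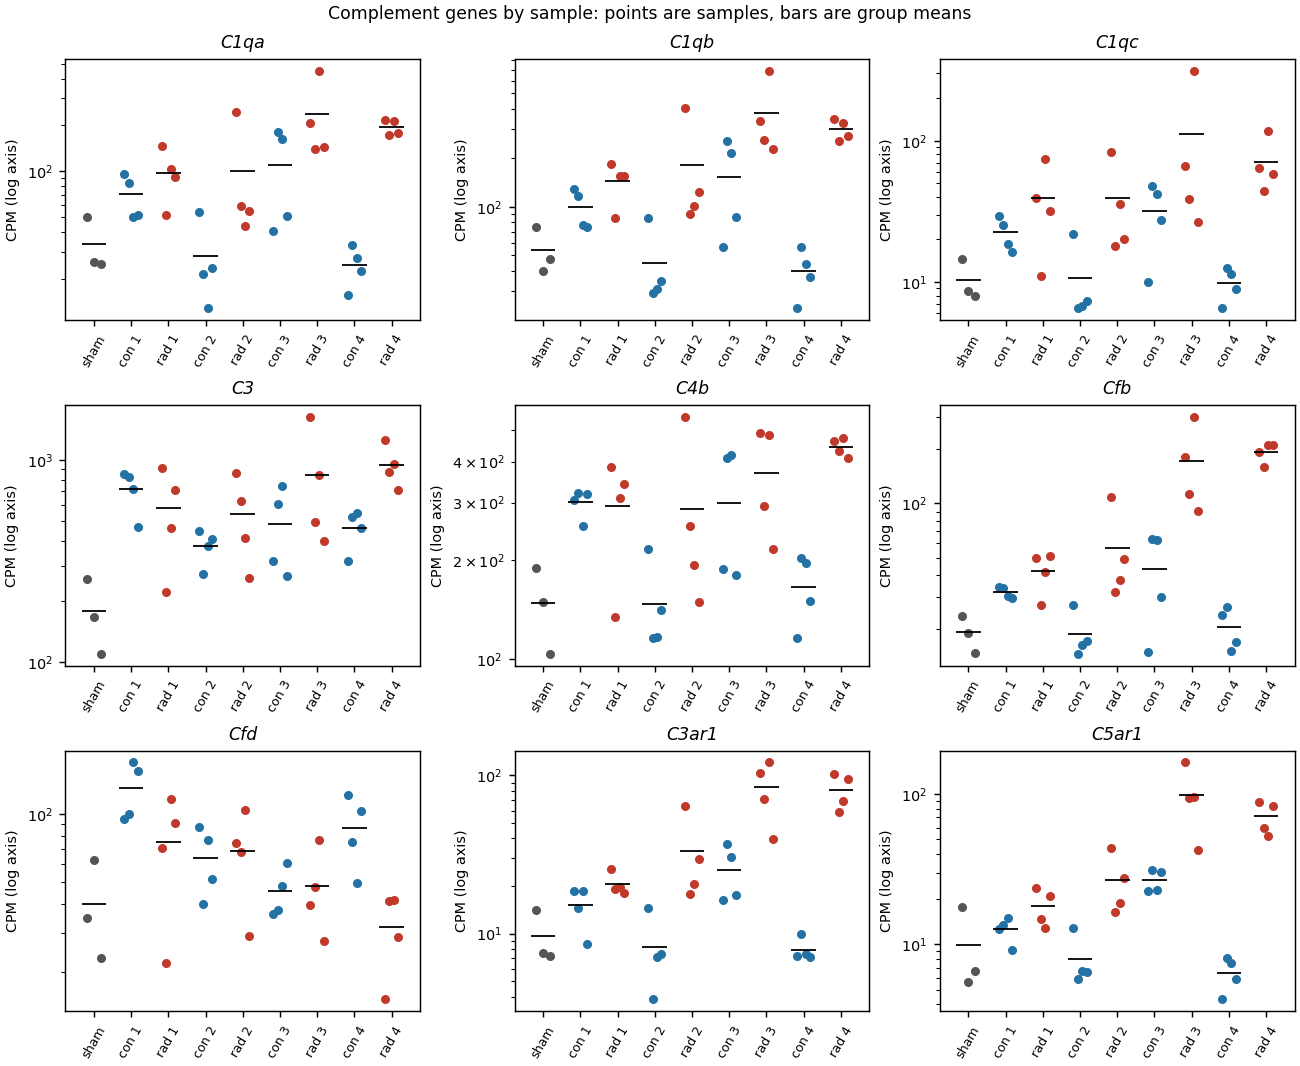
CPM on a log axis for each member, 1 point per library (grey sham, blue control, red radiated, digits giving the week) with the group mean as a bar. At week 4 the red points of all members but Cfd lie above the blue ones, and those of Cfd lie below.

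For the C1q subunits, the rise of week 4 was clear in every library. C1qb stood at 347, 256, 328 and 272 CPM in the 4 radiated libraries of week 4 and at 23.7, 56.4, 44.3 and 36.6 CPM in control skin, with 75.2, 40 and 47.3 CPM in sham skin. All radiated libraries were thus far above both other groups, which overlapped. The log2 fold change against control skin was 2.91 ± 0.241 (SE, n = 4 and 4, edgeR adjusted p = 1.34e-05).
C1qa also rose, from 24.6 ± 7.41 CPM (SD, n = 4) in control to 193 ± 22.8 CPM (SD, n = 4) in radiated skin, which is a log2 difference of 2.98 ± 0.21 (SE, edgeR adjusted p = 5.91e-06). C1qc rose from 9.85 ± 2.67 to 70.7 ± 31.8 CPM (SD, n = 4 each), which is a log2 difference of 2.85 ± 0.318 (SE, edgeR adjusted p = 7.33e-05). As factors these rises were 7.89 for C1qa, 7.51 for C1qb and 7.2 for C1qc.
In week 3 the control group was itself uneven. C1qb read 56.8, 254, 213 and 86.3 CPM in control skin and 339, 258, 688 and 228 CPM in radiated skin. Control replicate 2 was above radiated replicate 4, so that the groups overlapped, and control replicate 3 was just below it. The log2 fold change of 1.34 ± 0.513 (SE) had an edgeR adjusted p of 0.0802, and C1qa (1.13, adjusted p = 0.154) and C1qc (1.83, adjusted p = 0.109) did not pass either. With same-numbered libraries taken as pairs, C1qb passed at week 3 (1.46, adjusted p = 0.0431), which brought the members called to 4, against 10.0% of genes called higher in that fit.
At week 2 the pairs changed the calls. C1qb read 85, 29.2, 31 and 34.7 CPM in control replicates 1 to 4 and 408, 89.7, 101 and 123 CPM in the radiated replicates of the same numbers. Replicate 1 was the highest of its group on both sides, and all 4 pairs differed in the same direction, by between 1.62 and 2.26 on the log2 scale. Without the pairs the log2 fold change was 2.00 ± 0.541 (SE, edgeR adjusted p = 0.167).
The paired fit of week 2 called 6 members higher, C1qa (1.65), C1qb (1.85), C1qc (1.82), Cfb (1.46), C3ar1 (1.97) and C5ar1 (1.71), with edgeR adjusted p from 0.00441 to 0.00998, against 2.85% of genes called higher. That count was 6, 6 and 7 when pairs 1, 2 or 4 were left out, and 0 without pair 3. The shares of all genes called in these fits are not given here.

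Within a library, C1qa and C1qb kept a narrow ratio: C1qa was 41.6% to 79.2% of C1qb in all 35 libraries, with a median of 64.6%. C1qc did not. It stood at 35.6% to 48.6% of C1qb in the 4 radiated libraries numbered 3, 1 at each week, and at 11.7% to 31.9% (median 21.2%) in the other 31. C1qa was at 43.6% to 67.8% of C1qb in the same 4 libraries. The 4 mice carry the same number in different weeks and are different animals. This grouping by number was noticed in the data, and no test was made of it. The C1qc value of 312 CPM in radiated replicate 3 of week 3, where the other 3 libraries read 65.9, 38.6 and 26.7 CPM, belongs to this set.

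**Figure D2:**
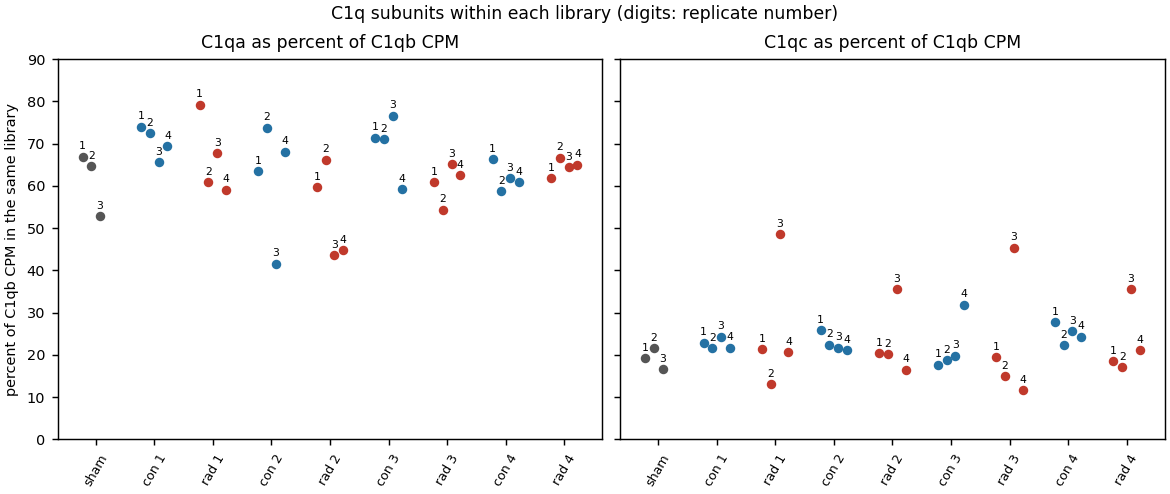
C1qa (left) and C1qc (right) as a percent of the C1qb level in the same library, by group, with the replicate number above each point. In the right panel the 4 radiated libraries numbered 3 lie at 35.6% to 48.6%, above the other 31 libraries.

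C3 is the component on which all pathways converge, and it had the highest mean CPM of the 9 members in every group. At week 4 it read 1256, 875, 953 and 708 CPM in radiated skin and 317, 521, 547 and 460 CPM in control skin. Sham skin was lower still, at 257, 168 and 110 CPM. The 3 groups did not overlap, radiated above control above sham. The log2 fold change was 1.05 ± 0.206 (SE, edgeR adjusted p = 0.00227) for radiated against control skin and 2.45 ± 0.324 (SE, edgeR adjusted p = 0.00119) for radiated against sham skin. The call against control skin was lost in 1 edgeR fit of all 35 libraries (1.04, adjusted p = 0.051).
C4b, whose product becomes part of the classical C3-cleaving protease, read 463, 431, 471 and 409 CPM in radiated and 116, 203, 196 and 151 CPM in control skin at week 4. The radiated libraries were close together and the control libraries overlapped the sham libraries, at 190, 150 and 104 CPM. The log2 fold change against control skin was 1.42 ± 0.164 (SE, edgeR adjusted p = 8.7e-05). C3 and C4b had the smallest rises of the 8 members that rose.
Neither passed against control skin at weeks 1, 2 or 3. At week 1, mean C3 was 576 CPM (SD 298, n = 4) on the radiated and 717 CPM (SD 177, n = 4) on the control side, with radiated replicate 2 at 223 CPM. C3 in control skin was above sham skin at week 1 (log2 fold change 2.00 ± 0.318, edgeR adjusted p = 0.0295) and week 4 (1.36 ± 0.296, adjusted p = 0.0468), and its values at week 2 (1.06, adjusted p = 0.0873) and week 3 (1.43, adjusted p = 0.0573) did not pass. With 3 sham libraries as the common reference these 4 comparisons share samples, and the calls at weeks 1 and 4 were lost in several fits without 1 library, with edgeR adjusted p up to 0.0892 at week 1 and 0.142 at week 4.

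Cfb encodes factor B, the protease precursor of the alternative pathway, and was called at weeks 3 and 4. It read 192, 160, 211 and 211 CPM in radiated and 23.9, 26.4, 15.2 and 16.9 CPM in control skin at week 4, against 23.8, 19 and 14.8 CPM in sham skin. Control and sham skin overlapped, and radiated skin stood 9.46-fold above control skin (log2 fold change 3.24 ± 0.191, edgeR adjusted p = 3.15e-06).
At week 3 the radiated libraries read 180, 112, 303 and 90.3 CPM and the control libraries 15, 63.5, 62.9 and 30.3 CPM. The groups did not overlap, although control replicates 2 and 3 were again the higher pair. The log2 fold change was 2.02 ± 0.513 (SE, edgeR adjusted p = 0.018), and the call was lost without control replicate 4 (1.88, adjusted p = 0.0554). Cfb overlaps a readthrough gene model and adjoins C2, so that a small part of its counts could be shared.
Cfd, the rate-limiting protease that cleaves factor B, went the other way. At week 4 it read 15.2, 41.3, 41.8 and 28.8 CPM in radiated and 121, 75, 49.6 and 103 CPM in control skin. Every radiated library was below every control library, and the log2 fold change was -1.45 ± 0.346 (SE, edgeR adjusted p = 0.00659). Sham skin, at 34.8, 62.6 and 23.1 CPM, overlapped radiated skin, and that comparison did not pass (-0.30 ± 0.413, adjusted p = 0.638).
Cfd was highest in control skin of week 1, at 94.9, 99.8, 169 and 155 CPM, all above the sham libraries (log2 fold change 1.68 ± 0.35, edgeR adjusted p = 0.0406). That call was lost without any 1 of control replicates 2, 3 and 4 or of the 3 sham libraries (adjusted p from 0.0506 to 0.111). It was also lost with the block (1.64, adjusted p = 0.254), but that block joins different mice and called 0% of genes higher. In radiated skin of that week Cfd read 70.9, 22, 116 and 90.9 CPM, lower than the same-numbered control library in 4 of 4 pairs, but the difference of -0.79 ± 0.399 (SE) had an adjusted p of 0.393. The values of weeks 2 and 3 were 0.10 each, with adjusted p of 0.932 and 0.834, and Cfd changed sign there when single libraries were left out.

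C5ar1, the receptor of the fragment C5a on myeloid cells, had the largest rise at week 4. It read 88.3, 59.9, 52.8 and 83.4 CPM in radiated and 4.29, 8.05, 7.48 and 5.84 CPM in control skin. The lowest radiated library was well above the highest control library, and the log2 fold change was 3.47 ± 0.239 (SE, edgeR adjusted p = 5.22e-06). Sham replicate 1, at 17.6 CPM, was above the other sham libraries, at 5.59 and 6.66 CPM.
C3ar1, the receptor of the fragment C3a, read 102, 58.9, 69 and 94.4 CPM in radiated and 7.2, 9.95, 7.48 and 7.07 CPM in control skin at week 4. Its groups were also far apart, with a log2 fold change of 3.36 ± 0.205 (SE, edgeR adjusted p = 3.4e-06).
Both receptors were also called at week 3, although control skin of that week was high. C5ar1 read 163, 93.8, 96.2 and 42.5 CPM in radiated and 22.8, 31.4, 23 and 30.4 CPM in control skin (log2 fold change 1.91 ± 0.352, edgeR adjusted p = 0.00493). For C3ar1 the values were 104, 71.5, 121 and 39.7 CPM against 16.2, 37, 30.6 and 17.6 CPM (1.76 ± 0.386, adjusted p = 0.01). Control libraries of week 3 were called higher than sham for these 2 receptors and no other member (C3ar1 1.39, adjusted p = 0.0451, and C5ar1 1.42, adjusted p = 0.0476), against 5.18% of genes called higher. Both calls were lost with the block on replicate number, which joins different mice here and called 1.19% of genes higher.
Hc, the gene of C5 from which C5a is cut, was close to the limit of counting, at 1.16 ± 0.722 CPM (SD, n = 4) in the radiated libraries of week 4 and 0.206 ± 0.163 CPM in the control libraries, a mean of 27.5 and 4.5 counts. It was below the filter in radiated against control skin at week 4.

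**Figure D3:**
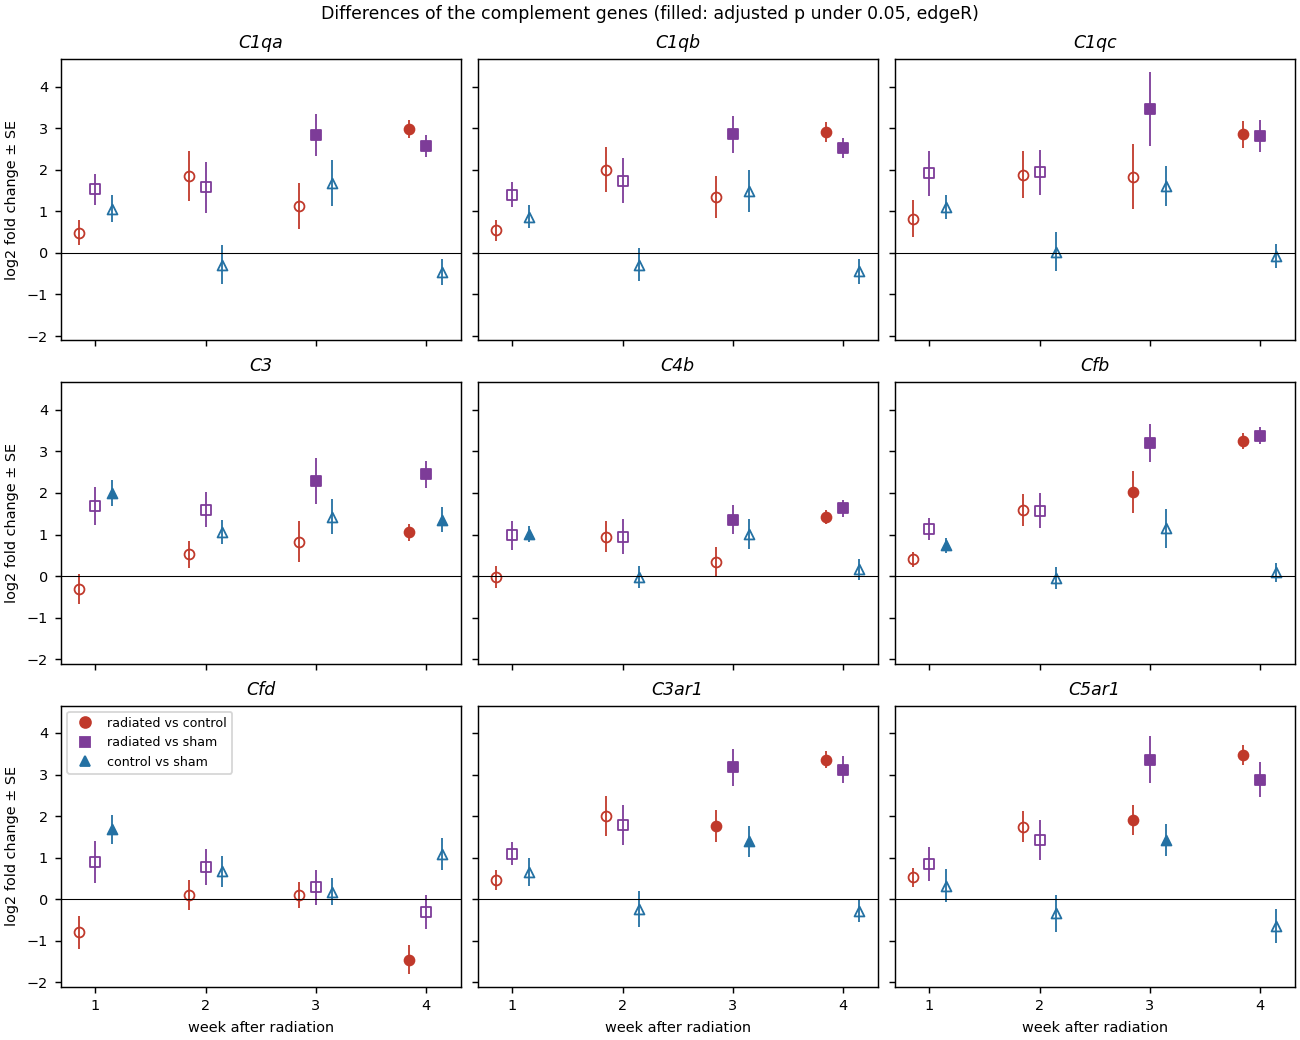
Log2 fold change ± SE of each member by week for radiated against control (red circles), radiated against sham (purple squares) and control against sham skin (blue triangles), with filled symbols at an adjusted p under 0.05. All 9 red circles are filled at week 4, 3 at week 3 and none at weeks 1 and 2.

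Against sham skin, radiated skin was called higher for 8 members at week 3 (10.4% of genes) and the same 8 at week 4 (15.2% of genes), all but Cfd. At week 3 the values ran from 1.36 for C4b to 3.46 for C1qc, and at week 4 from 1.63 for C4b to 3.38 for Cfb. The week 3 count was 5 without sham replicate 2 or 3, and the call of C1qc was lost without any 1 of the 3 sham libraries (adjusted p from 0.072 to 0.108). None was called at week 1, against 0.543% of genes, although 6 were called without radiated replicate 2, 4 without sham replicate 1 and 6 by DESeq2. The shares of all genes called in those other fits are not given here. No member was called at week 2, against 2.16%, while the paired fit called 5 at week 2, against 1.21%. With sham skin, such pairs join different mice.
Control skin was also compared with sham skin. At week 1, C3, C4b (1.01, edgeR adjusted p = 0.0387), Cfb (0.74, adjusted p = 0.0491) and Cfd were higher, against 3.28% of genes. C3 alone was higher at week 4, against 1.76%, and none at week 2, against 1.37%. When 1 library was left out, the count ranged from 0 to 7 at week 1 and from 0 to 4 at week 3. In the leave-out fits that lost C4b at week 1, its log2 fold change was still 0.82 to 1.08. With the block, which joins different mice here, the count was 0 at weeks 1, 3 and 4. That block called 0%, 1.19% and 0.0167% of all genes higher at those weeks. Radiated and control skin are set against the same 3 sham libraries, so the comparisons share samples.

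Per kilobase of the longest coding transcript, the order of the members differed between groups. In radiated skin of week 4 it was C1qb (277 CPM per kb), C1qa (186), C3 (185), C4b (82.4), Cfb (70.3), C1qc (58.7), Cfd (34.4), C5ar1 (28) and C3ar1 (18.8). C1qb lay above C1qa in level without overlap of the libraries, and C3 above C4b, while each other pair of neighbours overlapped. In control skin of week 4 the order began with Cfd (94.4 CPM per kb) and C3 (89.8), which overlapped, and ended with C5ar1 (2.53) and C3ar1 (1.84), which also overlapped. In sham skin the first 5 (C1qb, Cfd, C3, C1qa and C4b) lay between 49.8 and 27.5 CPM per kb, each overlapping the next.

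Dependence of the radiation effect on the week was tested with 3 week-by-radiation terms in 1 model. It passed for Cfb (edgeR adjusted p = 0.00471), C3ar1 (adjusted p = 0.00439) and C5ar1 (adjusted p = 0.000804), against 15.6% of genes. With the block on same-numbered libraries, whose origin in 1 mouse is inferred and not stated in the labels, C1qa, C1qb and C4b were called as well, 6 in all, against 15.8% of genes, and without the libraries numbered 3 only 1 member was called.
Radiated skin changed between weeks 2 and 3, when Cfb (log2 fold change 1.62 ± 0.392, edgeR adjusted p = 0.0033), C3ar1 (1.37 ± 0.388, adjusted p = 0.0108) and C5ar1 (1.91 ± 0.337, adjusted p = 0.000186) were called higher, against 10.9% of genes. That count was 6 without the libraries numbered 1 and 1 without those numbered 3. No member was called between weeks 1 and 2, against 0.579% of genes, or between weeks 3 and 4, against 0.471%.
Members were called in control skin at the last step. From week 3 to week 4, C1qa (-2.14, edgeR adjusted p = 0.011), C1qb (-1.92, adjusted p = 0.0112), C3ar1 (-1.68, adjusted p = 0.00763) and C5ar1 (-2.06, adjusted p = 0.000479) fell, against 6.02% of genes called lower. In radiated skin the values of that step were -0.27 for C1qa, -0.32 for C1qb, -0.05 for C3ar1 and -0.47 for C5ar1, none of which passed. The test of the difference between both steps did not pass for these 4 either (edgeR adjusted p = 0.237, 0.267, 0.17 and 0.113), against 0.419% of genes, and with the block C3ar1 alone passed (1.64, adjusted p = 0.0459), against 0.662% called higher. C5ar1 had been higher in week 3 than in week 2 (1.74, adjusted p = 0.0163), against 0.331% of genes. C3ar1 passed at that step only with the block (1.72, adjusted p = 0.0314, against 1.61 and 0.0569 without), which called 0.621% of genes higher. For steps within control skin the block joins same-numbered libraries of different weeks, which are not the inferred pairs of 1 mouse. No member was called between weeks 1 and 2, against 0.729%. These contrasts within control skin were added after the data had been seen.

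The other genes of the cascade came from a fixed list of 49, of which 48 were found and 38 could be tested at week 4 in radiated against control skin. 18 were called higher and 3 lower, against 24.2% of all genes tested in each direction. C1s2, Cfi and Vsig4, among the 18, passed the filter on low counts only through radiated skin and could only be called higher. The median log2 fold change of the 38 was 0.74, against 0.017 over all genes. At week 3, 6 of 36 were higher and 3 lower, against 13.6% of genes in each direction, and none of 33 at week 2 or of 36 at week 1 was called.
Of the 4 classical proteases tested at week 4, C1s1, C1ra and C2 rose, and C1s2 was called higher with control skin near the counting limit. C1s1, the C1 protease that cleaves C4, rose from 70.9 ± 5.87 to 207 ± 55.9 CPM (SD, n = 4 each), which is a log2 difference of 1.55 (edgeR adjusted p = 7.45e-05). C1ra, which activates it, rose by 1.38 (adjusted p = 0.000122) and C2 by 0.86 (adjusted p = 0.000229) on the log2 scale. C1s2 was at 2.63 ± 0.418 CPM against 0.175 ± 0.231 CPM, the latter a mean of 3.75 counts.
In the lectin pathway, Masp1, a protease of the mannose-binding lectin complexes, was the only one called at both weeks. It read 47.3 ± 33.3 CPM against 8.34 ± 3.05 CPM at week 3 and 50.7 ± 8.47 against 9.59 ± 2.08 CPM at week 4 (SD, n = 4 each), with log2 fold changes of 2.54 (edgeR adjusted p = 0.00489) and 2.41 (adjusted p = 7.62e-06). Colec12, a scavenger receptor of the collectin family, rose by 1.36 and the ficolin gene Fcna by 1.58 at week 4 (adjusted p = 0.000113 and 0.0274). Cfp, properdin, which stabilises the alternative C3-cleaving protease, rose from 9.91 ± 1.82 to 67 ± 15 CPM, a log2 fold change of 2.77 (adjusted p = 5.94e-06).
The terminal components, which build the membrane pore, stayed low in level and were split. C6 rose at week 4 from 3.45 ± 1.55 to 21 ± 6.87 CPM (log2 fold change 2.60, edgeR adjusted p = 0.000267), C7 fell from 1.89 ± 0.367 to 1.11 ± 0.267 CPM (-0.76, adjusted p = 0.0424), and C8a did not pass. The call of C7 was lost with the block (adjusted p = 0.0709), as was its call of week 3 (adjusted p = 0.0752).
Among regulators in solution, the C1 inhibitor (Serping1, log2 fold change 1.38, edgeR adjusted p = 0.000184) rose at week 4, while Clu, clusterin, had 0.47 with an adjusted p of 0.0652. Factor I (Cfi), which cuts C3b, was called at 3.04 ± 2.04 CPM against 0.0909 ± 0.0694 CPM, a mean of 73 against 2 counts.
Of the 8 membrane regulators, 2 were called lower at week 4 and none higher, a share close to the 24.2% of all genes called lower. Cd55, which speeds the decay of the C3-cleaving proteases, fell from 78.1 ± 10.7 to 24.6 ± 5.42 CPM at week 3 and from 80.2 ± 15.9 to 33.7 ± 4.85 CPM at week 4 (SD, n = 4 each), log2 fold changes of -1.64 (edgeR adjusted p = 0.00116) and -1.24 (adjusted p = 0.000197). Cd59a, which blocks assembly of the pore, fell by 1.33 and 1.47 on the log2 scale (adjusted p = 0.00515 and 4.67e-05). Cr1l, the mouse relative of the C3b receptor, held a log2 fold change of 0.07 ± 0.0774 at week 4. Against sham skin, Cd59a was lower at week 3 (-0.95, adjusted p = 0.0433, but 0.0743 with the block), against 7.75% of genes, and neither gene passed at week 4 (Cd55 -0.14, adjusted p = 0.639, and Cd59a -0.60, adjusted p = 0.061). Cd55 in control skin was above sham skin at that week (1.06, adjusted p = 0.0382). With the block, which joins different mice here and called 0.0167% of genes higher, its edgeR adjusted p was 0.239.
Of the other receptors, 6 of 8 were called higher at week 4, against 24.2% of genes, and 5 at week 3, against 13.6%. The 6 include Vsig4, which passed the filter only through radiated skin. Itgam and Itgb2, the chains of complement receptor 3 on myeloid cells, had log2 fold changes of 3.17 and 2.77 at week 4 (edgeR adjusted p = 3.55e-06 and 6.31e-06), and Itgax, the partner chain in complement receptor 4, had 1.61 (adjusted p = 0.000123). C5ar2, the other receptor for C5a, went from 3.54 ± 0.361 to 13.3 ± 3.01 CPM (1.91, adjusted p = 3.34e-05), and Cd93 rose by 1.88 (adjusted p = 9.82e-05). Vsig4, the macrophage receptor for C3b, was called at 3.06 ± 1.26 CPM against 0.0634 ± 0.0743 CPM, a mean of 72.5 against 1.5 counts.

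**Figure D4:**
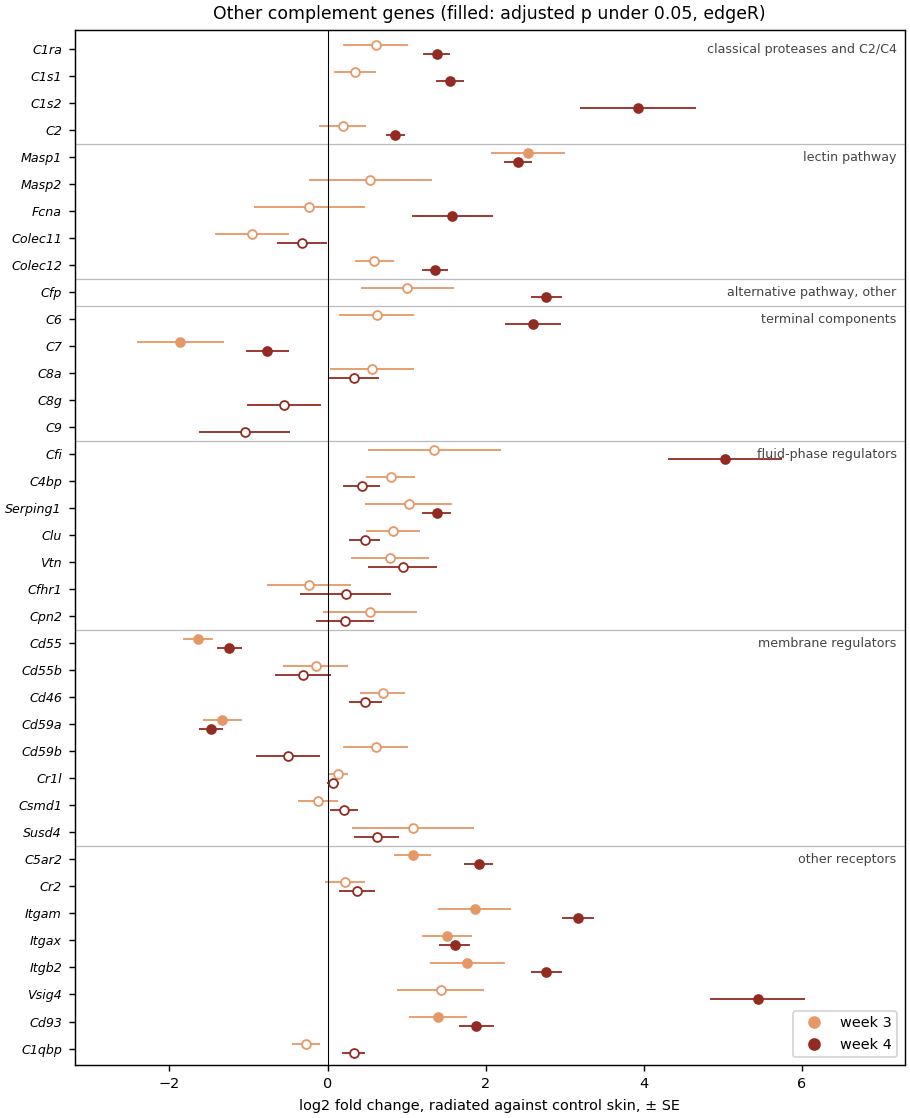
Log2 fold change ± SE of other complement genes tested in radiated against control skin at week 3 (orange) and week 4 (dark red), by role, with filled symbols at an adjusted p under 0.05. Cd55 and Cd59a lie to the left of 0 at both weeks, and Itgam, Itgb2 and Masp1 are filled on the right at both weeks.

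Sums of cell type markers differed between the groups as well. The 10 macrophage and monocyte markers, none of which is a complement gene, summed to 1322 to 2078 CPM in radiated and 279 to 425 CPM in control skin at week 4, to 1055 to 3061 and 459 to 1060 CPM at week 3, and to 233 to 444 CPM in sham skin. None of the 10 was at 0 throughout a group. Control replicates 2 and 3 of week 3, which were high in C1qb, had sums of 1060 and 1021 CPM, against 459 and 578 CPM in replicates 1 and 4. Radiated replicate 1 of week 2, the highest in C1qb, had 2351 CPM, against 583 to 849 CPM in the other 3. The 8 neutrophil markers summed to 251 to 524 CPM in radiated and 15.8 to 19.4 CPM in control skin at week 4, with Ly6g at 0 in that control group, and to 118 to 900 against 12.2 to 18.1 CPM at week 3. The 8 fibroblast markers summed to 19013 to 32353 against 1968 to 3655 CPM at week 4. Most of the radiated sum was Col1a1 (11600 to 18203 against 456 to 1159 CPM) and Col1a2 (5124 to 10611 against 554 to 1221 CPM), while Dcn was at 931 to 1279 against 569 to 882 CPM and Dpt overlapped (69.3 to 160 against 95.4 to 134 CPM). At week 4 the radiated sums were also above the control sums, without overlap, for 6 mast cell markers (96.8 to 137 against 35.1 to 41.4 CPM) and 6 endothelial markers (407 to 525 against 204 to 313 CPM). Sums of 5 B cell markers were low and nearly touched (1.94 to 2.86 against 0.741 to 1.92 CPM). The radiated sums were below, without overlap, for the keratinocyte list (11526 to 16986 against 23833 to 26248 CPM) and 7 dendritic and Langerhans cell markers (85.5 to 139 against 166 to 205 CPM). Members of both lists differed in direction. In the keratinocyte list Krt14 was higher in radiated skin (6431 to 7735 against 1448 to 1955 CPM) and Krt1 overlapped, while Krt10 (202 to 2268 against 8039 to 9087 CPM), Krt15 (20.3 to 444 against 3540 to 4733 CPM) and the other 4 were lower. In the dendritic and Langerhans list most of the sum was Epcam, which epithelial cells also express (44 to 105 against 132 to 165 CPM). Cd207 was lower as well (0.377 to 0.892 against 4.16 to 5.5 CPM), Flt3 (11.4 to 16.2 against 4.23 to 5.57 CPM) and Ccr7 were higher, and Zbtb46, Xcr1 and Itgae overlapped. The summed T cell list of 6 markers overlapped, at 19.7 to 29 against 28.4 to 31.6 CPM, although within it Cd3e was lower (4.4 to 6.74 against 12.9 to 15.9 CPM) and Lck higher (1.9 to 3.48 against 1.06 to 1.37 CPM), both without overlap. The sum of 6 hepatocyte markers was at most 5.66 CPM in any library.
Within each library, the log2 CPM of a member minus the mean log2 CPM of the macrophage list can be set side by side, as a description. At week 4 it was 0.40 ± 0.29 (control) and 0.91 ± 0.20 (radiated) for C1qa (SD, n = 4 each), and for Cfb 0.16 ± 0.41 and 0.91 ± 0.14. For C3ar1 it was -1.19 ± 0.13 and -0.37 ± 0.17, and for C5ar1 -1.51 ± 0.24 and -0.56 ± 0.25. For C3 and C4b the order was the reverse, with 4.64 ± 0.23 and 3.18 ± 0.38 for C3 and 3.17 ± 0.21 and 2.11 ± 0.25 for C4b. These differences were not tested.
For Cfd, the 8 adipocyte markers summed to 286 to 924 CPM in control and 399 to 488 CPM in radiated skin of week 4, which overlapped, and to 622 to 1238 against 260 to 603 CPM at week 1, which did not. Cfd minus the mean of the adipocyte list was 0.64 ± 0.20 (control) and -0.21 ± 0.64 (radiated) at week 4 (SD, n = 4 each). The 8 skeletal muscle markers summed to 1593 to 24201 CPM in control and 2024 to 4622 CPM in radiated skin of that week, which overlapped. At the earlier weeks the muscle sums were lower in radiated than in control skin without overlap, at 9926 to 23792 against 26405 to 42843 CPM (week 1), 13149 to 26537 against 29289 to 53075 CPM (week 2) and 3328 to 8554 against 19421 to 36667 CPM (week 3). Sham skin had 7600 to 20060 CPM, below control skin of weeks 1 and 2. The part of any of these cell types in the results was not tested.

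**Figure D5:**
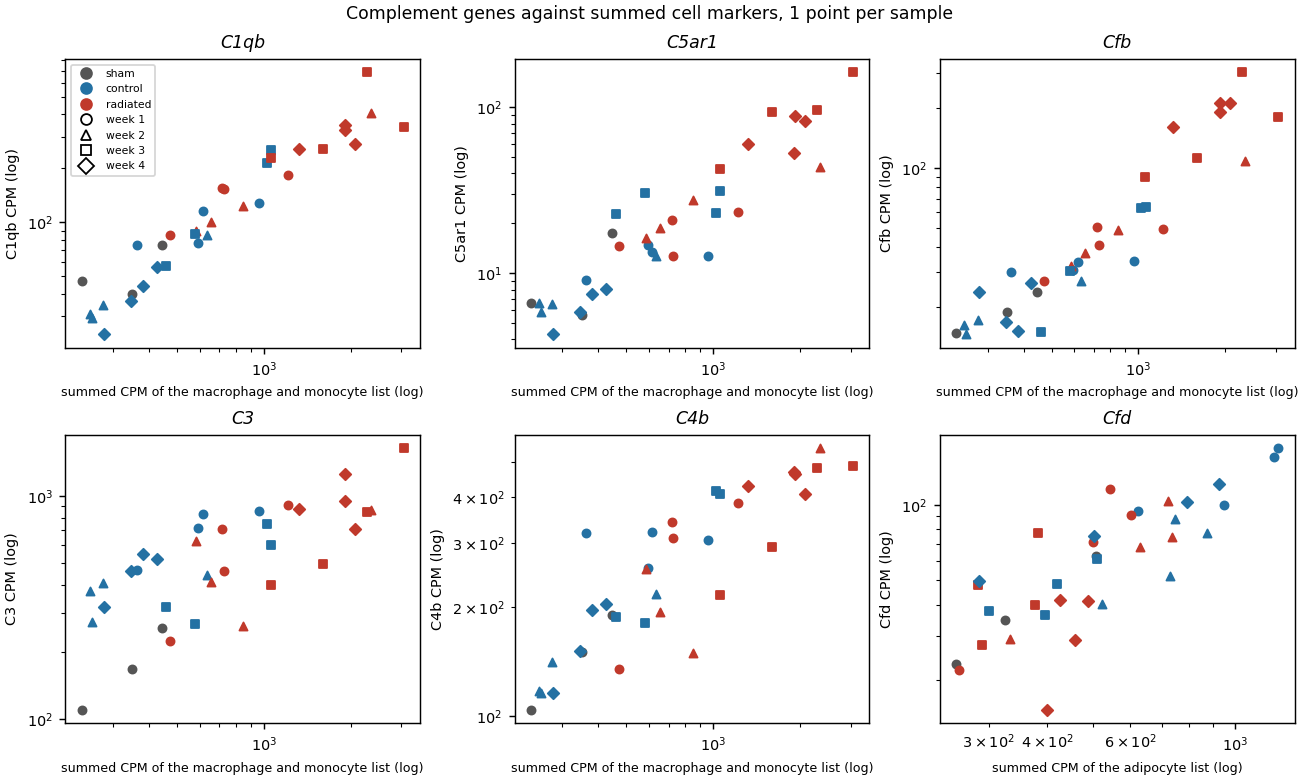
CPM of 6 members against the summed CPM of the macrophage and monocyte list, or of the adipocyte list for Cfd, on log axes, 1 point per library (grey sham, blue control, red radiated, symbol shape giving the week). At week 4 the radiated points of C1qb, C5ar1 and Cfb lie above and to the right of the control points, and C3 in control skin of week 4 lies above sham skin at overlapping sums.

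Across the 35 libraries and 12532 genes averaging 5 CPM or more, the genes most like each member were found by Pearson's r of log2 CPM, a description in which all genes share libraries, depth and groups. C1qa and C1qb were most like each other (r = 0.99) and then like Unc93b1 (0.98 for both), followed by Cfp (0.96) for C1qa and Dock2 (0.97) for C1qb. C1qc was nearest to Ninj1, Grn (0.96 each) and Unc93b1 (0.95), and neither C1qa nor C1qb was among its nearest 3. Cfb was nearest to Gusb (0.98), Sirpa and Ctss (0.97 each), C3ar1 to Pirb, Nckap1l and Lyn (0.98 each), and C5ar1 to Msr1, Lyn and Itgam (0.97 each). C3 was nearest to the classical proteases C1s1 (0.90) and C1ra (0.89) and to Galnt16 (0.88), and C4b to Nid1 (0.94), Cd209f (0.92) and C1qa (0.91). Cfd was nearest to Pnpla2 (0.87), a triglyceride lipase gene, and to Pcx and Cdo1 (0.85 each).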

How the data were processed

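Expected counts per gene were deposited for 35 skin RNA libraries. Per the submitters' processing notes, the authors used Trim Galore 0.6.7, kallisto 0.46.2 and mm10. The protocol in the labels also names DESeq2. Between 29.5% and 32.5% of values were not whole, and they were rounded. Each comparison was fitted in edgeR 4.0.16 (R 4.3.3) on its own groups, and the comparisons over weeks on all 32 radiated and control libraries, with filterByExpr, TMM scaling, the quasi-likelihood F test and Benjamini-Hochberg adjustment over all genes tested. The SE is the log2 fold change divided by the square root of F. CPM used TMM-scaled totals, and log2 CPM a prior count of 2. Where pairs were fitted, replicate number was a block. For the radiated-minus-control difference over weeks, the block was replicate number within each week. The pairing was inferred from the replicate numbers and the count of 19 mice: same-numbered deviations from the group means correlated at 0.07, 0.17, 0.05 and -0.02 in weeks 1 to 4 (other pairs -0.02, -0.06, -0.02 and 0.01), and every pair exceeded 0.1 at week 2 only (lowest 0.12). No 2 of 595 library pairs were identical. The fits were tested on simulated data. DESeq2 1.42.0 was an alternative. Named genes were the 9 members, other genes of a fixed complement list, and the 3 genes most like each member. The members and lists were chosen with earlier results of these data known. Contrasts within control skin were added after the data were seen. Gene positions are from GENCODE M21. C4a is not analysed here, and the values of 1 listed gene are not reported here.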

Additional observations from a re-analysis of the deposited data

Results flagged for a closer look

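Among 72 groups of 4 libraries, 7 values of members stood apart from the other 3 by Dixon's criterion, where chance flags about 1 group in 20. 5 of the 7 belong to week 2 replicate 1 on its 2 sides. In radiated skin that replicate read 243 CPM for C1qa (others 44 to 59.4) and 408 CPM for C1qb (others 89.7 to 123). In control skin it read 85 CPM for C1qb (others 29.2 to 34.7), 22 CPM for C1qc (others 6.54 to 7.35) and 12.8 CPM for C5ar1 (others 5.85 to 6.64). Its macrophage and monocyte list summed to 2351 CPM in radiated skin, against 583 to 849 CPM in the others. C1qc in radiated replicate 3 of week 3 stood at 312 CPM (others 26.7 to 65.9), and C3ar1 in control replicate 2 of week 4 at 9.95 CPM (others 7.07 to 7.48).

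By the test of the week-by-radiation terms (edgeR), the radiated-minus-control difference varied with the week for Cfb (adjusted p = 0.00471), C3ar1 (adjusted p = 0.00439) and C5ar1 (adjusted p = 0.000804).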

How the results depend on the processing

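In radiated against control skin at week 4, the calls of 8 members held with the block on replicate number, RLE factors, total-count scaling, no filter, DESeq2, 1 fit of all 35 samples and each library left out. C3 held in these except the 35-sample fit (1.04, edgeR adjusted p = 0.051). The counts of members called moved elsewhere, and the cause was not tested. Some counts from other fits, here and above, have no share of all genes beside them. Such counts cannot tell a trait of the members from a trait of the fit.

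In radiated against control skin at week 2, where the count was 0, the block gave 6, DESeq2 5 and the 35-sample fit 4. Over all genes, the block called 2.85% higher, and DESeq2 called 711 of 25273 in either direction. For the other complement genes the block, DESeq2 and the 35-sample fit gave 6, 7 and 6. The block with 3 of the 4 pairs, chosen after seeing the data, gave 6, 6, 0 and 7 members and 4, 4, 0 and 6 other genes without pairs 1, 2, 3 and 4. At week 3 the 35-sample fit gave 5 members in place of 3, the block without pair 3 gave 0, and for the other genes the block gave 4 without pair 2 or 3 in place of 9. At week 1 DESeq2 gave 2 other genes in place of 0.

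For radiated against sham skin at week 1 (0 members) the block, no filter, DESeq2 and the 35-sample fit gave 1, 3, 6 and 1, and for other genes 1, 1, 9 and 5. At week 2 (0 members) they gave 5, 4, 7 and 5, and for other genes 2, 3, 8 and 10. At week 3 DESeq2 gave 18 other genes in place of 11.

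For control against sham skin, the block gave 0 members and 0 other genes at weeks 1, 3 and 4, where 4, 2 and 1 members had been called. That block joins different mice, and over all genes it called 0%, 1.19% and 0.0167% higher at those weeks. DESeq2 gave 7, 1, 7 and 2 members and 10, 2, 13 and 5 other genes at weeks 1 to 4, and the 35-sample fit 2 members at week 1, 0 at week 4, and 2, 2, 5 and 2 other genes. Without the filter there were 5 and 2 other genes at weeks 3 and 4, and with total-count scaling 0 members at week 3. The block gave 6 members for the difference over weeks. In radiated against control skin, the block changed the calls of 6 members at week 2 and of C1qb at week 3, and no other.

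In radiated against control skin at week 3, Cfb lost its call without control replicate 4 (1.88, edgeR adjusted p = 0.0554). At week 2 of that comparison, members called ranged from 0 to 1 when 1 library was left out (1 without radiated replicate 2). Against sham skin they ranged from 0 to 6 (radiated, week 1), 0 to 1 (radiated, week 2), 5 to 8 (radiated, week 3), 0 to 7 (control, week 1), 0 to 1 (control, week 2), 0 to 4 (control, week 3) and 0 to 1 (control, week 4). They ranged from 1 to 3 for the difference over weeks and from 1 to 6 for radiated skin from week 2 to week 3. Other genes ranged from 0 to 1 and 0 to 3 (radiated against control, weeks 1 and 2), 0 to 4, 0 to 2 and 5 to 15 (radiated against sham, weeks 1 to 3), 0 to 7, 0 to 1, 0 to 5 and 0 to 3 (control against sham, weeks 1 to 4) and 3 to 7 (difference over weeks).

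Reversals of sign concerned values that had passed no test. With total-count scaling they were C4b in radiated against control skin at week 1 (0.10), C1qc in control against sham skin at week 2 (-0.08), and C1qa (-0.03) and C1qc (-0.08) in radiated skin from week 1 to 2. With the block they were C1qc in control against sham skin at week 2 (-0.01), C1qa in radiated skin from week 1 to 2 (-0.09) and C3ar1 from week 3 to 4 (0.01). C4b in control against sham skin at week 2 became 0.01 with RLE factors, no filter and DESeq2. Cfd in radiated against control skin, with the block and 3 pairs, was -0.21 and -0.10 at week 2 (without pairs 2 and 3) and -0.01, -0.07 and -0.21 at week 3 (without pairs 1, 2 and 3).

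Leaving out libraries, the reversed values ranged as follows. In radiated against control skin they were -0.20 to 0.21 for C4b at week 1 and -0.18 to 0.34 and -0.23 to 0.29 for Cfd at weeks 2 and 3. Cfd in radiated against sham skin ranged from -0.58 to 0.19 at week 4. In control against sham skin at week 2 the ranges were -0.80 to 0.15 (C1qa), -0.77 to 0.06 (C1qb), -0.59 to 0.38 (C1qc), -0.25 to 0.23 (C4b), -0.25 to 0.17 (Cfb), -0.65 to 0.18 (C3ar1) and -0.65 to 0.39 (C5ar1). Cfd ranged from -0.10 to 0.64 at week 3. At week 4 the ranges were -0.23 to 0.24 (C1qc), -0.03 to 0.38 (C4b), -0.05 to 0.27 (Cfb), -0.44 to 0.09 (C3ar1) and -0.92 to 0.05 (C5ar1). In radiated skin from week 1 to 2 they were -0.64 to 0.31 (C1qa), -0.33 to 0.56 (C1qb), -0.66 to 0.56 (C1qc), -0.44 to 0.25 (C3), -0.40 to 0.27 (C4b), -0.01 to 0.60 (Cfb) and -0.42 to 0.25 (Cfd). From week 3 to 4 they were -0.40 to 0.20 (C1qa), -0.45 to 0.08 (C1qb), -0.88 to 0.34 (C1qc), -0.07 to 0.56 (Cfb) and -0.36 to 0.24 (C3ar1).

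Total-count scaling shifted the median of all genes by 0.136 and 0.237 in radiated against control skin at weeks 1 and 3, by -0.134 in radiated against sham skin at week 2 and by -0.15, -0.176 and -0.167 in control against sham skin at weeks 1 to 3. With 4 libraries a group, the range of values within a group, not the counts behind a member, limits the precision.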
